A study of Mus musculus with 11 samples.

Results

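The nuclear genes of the mitochondrial respiratory chain were followed through chromatin accessibility in 4 subsets of mouse CD4 T cells. A peak, a stretch of open chromatin, was counted as a respiratory chain peak when its centre lay nearest to a RefSeq start site of a gene whose symbol begins with Nduf, Sdha, Sdhb, Sdhc, Sdhd, Uqcr, Cox4, Cox5, Cox6, Cox7, Cox8 or Atp5. This rule uses position alone, and it gave 150 of the 38509 peaks in the deposited table. All 150 peaks passed the filter on low values. They belonged to 86 of the 102 genes that the rule covers.

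The respiratory chain sits in the inner mitochondrial membrane. Complex I takes electrons from NADH and complex II takes them from succinate, complex III passes them to cytochrome c, and complex IV hands them to oxygen. Protons moved on the way drive complex V, the ATP synthase. Most subunits are encoded in the nucleus, and separate assembly factors build the complexes. Resting T cells draw much of their ATP from this chain, while activated effector cells add glycolysis, and regulatory T cells are known to lean on mitochondrial respiration. Peaks on mitochondrial DNA were left out by the authors, so the subunits encoded there were not measured.

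ATAC-seq, in which a transposase cuts and tags open DNA, was run on CD4 T cells sorted from the spleen and lymph nodes of untreated mice and used fresh. All groups had the genotype wildtype C57BL/6 Foxp3-GFP polyclonal, so the reporter was shared by every library, and no age was given. Naive cells were CD44low (n = 2 libraries). Effector cells, called Teff in the labels, were CD44high FOXP3- CD73low FR4low (n = 3), anergic cells were CD44high FOXP3- CD73high FR4high NRP1+ (n = 3), and Treg cells were FOXP3+ CD25+ (n = 3). Anergic T cells have met antigen without going on to respond to it. The labels do not say whether libraries of a group came from separate animals, and the p-values here therefore reflect library-to-library spread alone, which may be technical.

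Megareads in peaks numbered 45.7 and 48.1 in the naive libraries, 20.9 to 50.9 in Teff, 21.5 to 68.8 in anergic and 14.7 to 29.7 in Treg. Signal is given on the deposited scale, on which 1 read was worth 0.527 to 2.13 units depending on the library. Of the CD4 T cell markers, 5 of 6 had a peak, and their summed signal ran from 401 to 606 CPM (reads scaled to a common total of reads in peaks). A peak at Foxp3, the factor that marks Treg cells, reached 1118 to 1597 units in the Treg libraries. It had 15.4 and 7.74 in naive, 14 to 63.3 in Teff and 96.1 to 184 in anergic, whose libraries lay above all naive and Teff libraries. The B cell markers Ms4a1, Cd79a, Pax5, Blk and Fcer2a had no peak, and the peaks of Cd79b and Ebf1 summed to 17.1 and 18 CPM in naive, 10.3 to 14.8 in Teff, 10.1 to 13.1 in anergic and 16.0 to 17.9 in Treg. Myeloid and dendritic markers (4 of 9 with a peak) summed to 45.6 and 46.5 in naive, 87.4 to 95.9 in Teff, 70.5 to 79.2 in anergic and 67.4 to 78.9 in Treg. These markers went different ways. A Zbtb46 peak had 244 and 292 units in naive and 667 to 933 elsewhere. An Itgam peak had 212 and 141 in naive and 16.1 to 57.5 elsewhere. An Itgax peak was highest in Teff (85.1 to 94.1) and lowest in Treg (10.1 to 29.8), and an Adgre1 peak overlapped between groups (298 to 449). Of 7 genes for CD8, NK and innate-like T cells, Cd8a, Klrd1 and Ncr1 had no peak, and the list summed to 642 and 657 in naive, 723 to 822 in Teff, 577 to 716 in anergic and 582 to 719 in Treg. Its members differed in which group was highest. The Zbtb16 start-site peak had 733 to 1032 units in Teff against 14.6 to 183 elsewhere, and a Klrb1c peak 813 to 1075 against 196 to 381. The Cd8b1 start-site peak had 1117 and 1150 in naive, 613 to 750 in Treg, 179 to 227 in Teff and 115 to 285 in anergic. An Eomes peak had 270 and 367 in naive, 264 to 307 in Treg, 118 to 150 in Teff and 123 to 197 in anergic. Erythroid genes (2 of 5 with a peak) summed to 74.8 and 76.7, 63.8 to 66.1, 56.5 to 67.1 and 56.6 to 61.5 CPM in naive, Teff, anergic and Treg. Of these, a Klf1 peak was highest in naive (2789 and 2688 units), and an Alas2 peak was highest in anergic and Treg (109 to 171). Of the B cell markers, a Cd79b peak was highest in naive (77.2 and 72.8) and an Ebf1 peak in Treg (145 to 171). The part of such cells in any difference below was not tested. In bulk libraries, fewer cells with an open site and a less open site in each cell cannot be told apart.

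Respiratory chain peaks lay at start sites more often than peaks in general. Of the 150 peaks, 86 had their centre within 1000 bases of the start site and are called start-site peaks, which is 57.3% against 33.2% of all peaks on chromosomes. They covered 77 genes. The other 64 peaks are called distal. Of these, 9 lay inside the nearest gene, 20 inside another gene only and 35 outside annotated genes, so the nearest gene is a label of position and not a shown target. Another gene's start lay within 1000 bases of 22 of the 86 start-site peaks (25.6%), against 14.7% of all start-site peaks.

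Some genes lost their start-site peak to a close neighbour under this rule. Of the 16 genes with no peak of their own, 8 have a peak at the start site that lies nearer to another gene: Sdhd (given to Timm8b), Ndufs1 (Eef1b2), Atp5a1 (Haus1), Atp5pb (Wdr77), Ndufa11 (Vmac), Ndufaf7 (Cebpz), Ndufb3 (Fam126b) and Sdhaf2 (Cpsf7). The same held for 5 of the 9 genes with distal peaks only (Atp5h, Ndufa13, Ndufa2, Ndufa7 and Ndufb9). These 13 shared start-site peaks are not among the 150. In Treg against naive, 0 of the 13 were higher and 5 lower (11.1% and 28.3% of all start-site peaks), and in anergic against Treg 2 were higher and 0 lower (20.6% and 6.90%). These became 1 and 1, and 0 and 1, with scaling by total reads in peaks, an alternative chosen for these peaks after seeing the data. No peak lay within 1000 bases of a start site of Atp5g1, Cox6a2, Cox7b2, Cox8b, Cox8c, Ndufa6, Ndufb4c or Ndufs5-ps. Cox6a2, Cox7b2, Cox8b and Cox8c are isoforms of muscle, heart or testis.

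The 4 promoters that follow were selected for their motifs or their values. Ndufa5 and Cox6a1 carry the motif of NRF1, a factor known for nuclear genes of mitochondria, Atp5g3 carries that of the ERR nuclear receptors, and Cox7a1 is the start-site peak that differed most between groups. Each is the 250 bases before the RefSeq start site (GRCm38.p6), written 5′ to 3′ along the gene, with matches to the 6 promoter motifs named below (NRF1, YY1, ERR, ETS, SP1 and CRE) in capitals.
Ndufa5 promoter (chr6:24527691-24527940, minus strand): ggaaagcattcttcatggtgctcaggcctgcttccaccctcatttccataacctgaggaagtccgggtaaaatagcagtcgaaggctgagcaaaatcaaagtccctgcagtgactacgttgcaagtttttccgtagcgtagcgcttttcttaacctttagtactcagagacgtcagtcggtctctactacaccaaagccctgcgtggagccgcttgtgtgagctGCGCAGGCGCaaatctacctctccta
Cox6a1 promoter (chr5:115348959-115349208, minus strand): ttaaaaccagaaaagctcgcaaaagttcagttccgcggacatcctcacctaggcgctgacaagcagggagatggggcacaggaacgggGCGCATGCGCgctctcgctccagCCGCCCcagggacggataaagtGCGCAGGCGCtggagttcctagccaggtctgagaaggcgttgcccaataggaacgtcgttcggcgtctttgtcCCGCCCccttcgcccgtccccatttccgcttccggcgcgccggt
Atp5g3 promoter (chr2:73911327-73911576, minus strand): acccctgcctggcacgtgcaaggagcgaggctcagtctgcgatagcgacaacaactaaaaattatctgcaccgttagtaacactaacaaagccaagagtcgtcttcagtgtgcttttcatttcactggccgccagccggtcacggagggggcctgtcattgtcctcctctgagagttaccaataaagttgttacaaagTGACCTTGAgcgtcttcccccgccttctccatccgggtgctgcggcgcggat
Cox7a1 promoter (chr7:30183921-30184170, plus strand): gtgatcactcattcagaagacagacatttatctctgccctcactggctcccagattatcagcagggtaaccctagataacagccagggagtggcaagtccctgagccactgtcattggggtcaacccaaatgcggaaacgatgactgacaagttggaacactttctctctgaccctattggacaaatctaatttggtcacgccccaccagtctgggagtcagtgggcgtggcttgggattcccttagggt

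The capitals in Ndufa5 are 1 NRF1 match, in Cox6a1 they are 2 NRF1 matches and 2 SP1 matches, and in Atp5g3 they are 1 ERR match, read on the other strand. Cox7a1 holds none of the 6 promoter motifs in this window. RefSeq promoter windows of 250 bases before to 50 bases after a start were searched on both strands. A window overlapping a peak was found for 82 respiratory chain promoters of 77 genes and for 11781 promoters of all genes. The NRF1 motif, the capitals in Ndufa5 with any letter at its sixth place, was present in 21 of the 82 (25.6%), against 11.3% of the open promoters of all genes. The YY1 motif AAGATGGC was present in 11 (13.4%) against 4.76%. The ERR motif TCAAGGTCA was present in 2 (2.44%) against 0.195%. Of the other promoter motifs, ETS CCGGAAGT stood at 6.10% against 9.0%, SP1 GGGCGG at 46.3% against 67.6% and CRE TGACGTCA at 4.88% against 3.50%. The median GC content of the windows was 58.8% against 62.0%. Matches of different motifs were allowed to overlap, and a match describes letters only.

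The next 3 sequences are the central 200 bases of distal peaks that differed strongly between the subsets, given on the plus strand of GRCm38.p6, the mm10 build of the files.
Sdhaf1, 4.99 kb upstream (chr7:30327260-30327459, plus strand): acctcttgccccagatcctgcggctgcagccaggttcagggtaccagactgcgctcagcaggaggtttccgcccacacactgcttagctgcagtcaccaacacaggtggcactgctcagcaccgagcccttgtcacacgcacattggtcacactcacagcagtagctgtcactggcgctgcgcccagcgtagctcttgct
Ndufaf6, 14.7 kb upstream (chr4:11090794-11090993, plus strand): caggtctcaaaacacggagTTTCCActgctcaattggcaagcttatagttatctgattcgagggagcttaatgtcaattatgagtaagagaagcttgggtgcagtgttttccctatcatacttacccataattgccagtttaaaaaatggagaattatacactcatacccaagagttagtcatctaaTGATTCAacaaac
Ndufaf1, 21.1 kb downstream (chr2:119641633-119641832, plus strand): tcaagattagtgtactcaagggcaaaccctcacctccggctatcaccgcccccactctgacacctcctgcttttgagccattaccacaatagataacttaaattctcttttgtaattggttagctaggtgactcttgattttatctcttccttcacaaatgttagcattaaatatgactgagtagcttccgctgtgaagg

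In Ndufaf6 the capitals are an NFAT match (TTTCCA, the reverse of TGGAAA) and an AP-1 match (TGATTCA). Capitals here mark AP-1, NFAT, RUNX and TCF letters only, and the windows of Sdhaf1 and Ndufaf1 had no match to these 4. Over the 64 distal respiratory chain peaks, the AP-1 motif TGANTCA was found in 4 (6.25%) against 11.7% of 25675 distal peaks. RUNX TGTGGTT was found in 9.38% against 11.5%, NFAT TGGAAA in 15.6% against 17.8% and TCF TTCAAAG in 3.12% against 5.95%.

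Start sites of the respiratory chain were open in every subset and varied little. Their mean signal over the 11 libraries ranged from 35.7 to 8020 units with a median of 1270, and the median for all start-site peaks was 1182. Per kilobase of peak the medians were 1543 and 1335 units. The highest and lowest group means of a peak differed by a median of 0.34 on the log2 scale, against 0.43 for all start-site peaks. A span of 1 or more on that scale was seen at 4 of 86 peaks (4.65%), against 14.1% of all start-site peaks. Reads in the 86 peaks made up 0.431% to 0.459% of all reads in peaks, with 0.449% and 0.453% in naive and 0.431% to 0.448% in Treg.

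The most open start-site peaks of complexes III, IV and V differed little between the subsets. Atp5d, which encodes the delta subunit of the ATP synthase head, had 8088 and 8249 units in naive, 7184 to 7834 in Teff, 8371 to 8901 in anergic and 7286 to 8212 in Treg. Uqcrq, a small subunit of complex III, had 8803 and 8076 in naive, 7004 to 7932 in Teff, 7384 to 8230 in anergic and 6707 to 8232 in Treg. Cox4i1, the common isoform of a core regulatory subunit of complex IV, had 3399 and 3501 in naive, 3580 to 4017 in Teff, 2924 to 3690 in anergic and 3106 to 3836 in Treg. At each of these 3 peaks the Treg libraries overlapped the naive and the Teff libraries, while the anergic libraries stood above all others at Atp5d and overlapped them at Uqcrq and Cox4i1. The difference among 4 groups did not pass the threshold (adjusted p = 0.103 for Atp5d, 0.446 for Uqcrq and 0.339 for Cox4i1 by the limma F test, Benjamini-Hochberg adjusted over 38493 peaks). The most open start-site peak of complex I was Ndufv3 (mean 5651) and that of complex II was Sdhb (2950). Both were lower in Treg than in naive and are described with the Treg results. Among assembly factors it was Sdhaf1 (7431), which was higher in Treg than in Teff.

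Over all 150 peaks, 66 differed among the 4 groups at an adjusted p under 0.05 (44.0%), against 66.0% of all peaks. At start sites the count was 33 of 86 (38.4%, against 51.7% of all start-site peaks), and at distal peaks 33 of 64 (51.6%, against 73.1% of all distal peaks). Without naive replicate 1 the start-site count fell from 33 to 19. Of the 33 start-site peaks, 21 had their highest mean in naive cells (63.6%, against 47.3% of all start-site peaks that differed) and 23 their lowest in Treg (69.7%, against 47.0%). With scaling by total reads in peaks, 23 start-site peaks differed, of which 8 were highest in naive (34.8%, against 33.4%) and 10 lowest in Treg (43.5%, against 23.9%). Of the 33 distal peaks, 14 were lowest in naive (42.4%, against 40.5% of all distal peaks that differed) and 13 in anergic (39.4%, against 31.4%), while 11 were highest in anergic (33.3%, against 30.1%).

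**Figure D1:**
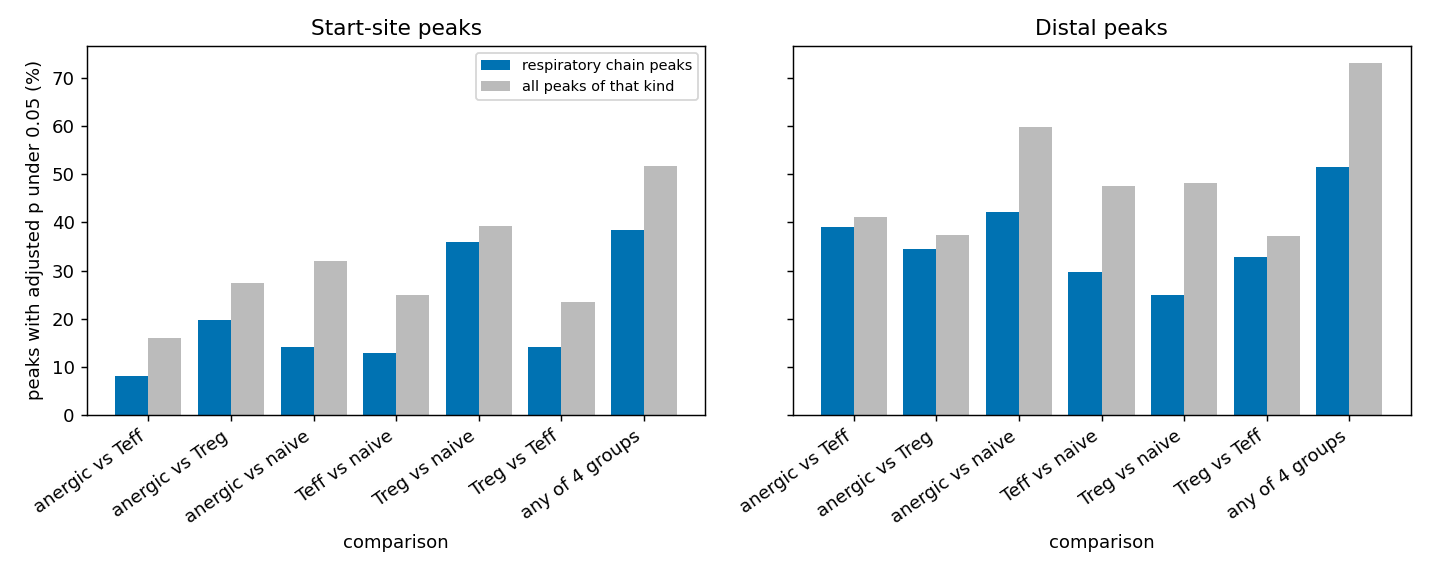
Share of peaks with an adjusted p under 0.05 (y axis, percent; limma) in each comparison (x axis), for respiratory chain peaks (blue) and all peaks of the same kind (grey), at start sites (left) and at distal sites (right). The blue bar is the lower in every pair, from 8.14% against 16.0% in anergic against Teff to 36.0% against 39.3% in Treg against naive at start sites.

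**Figure D2:**
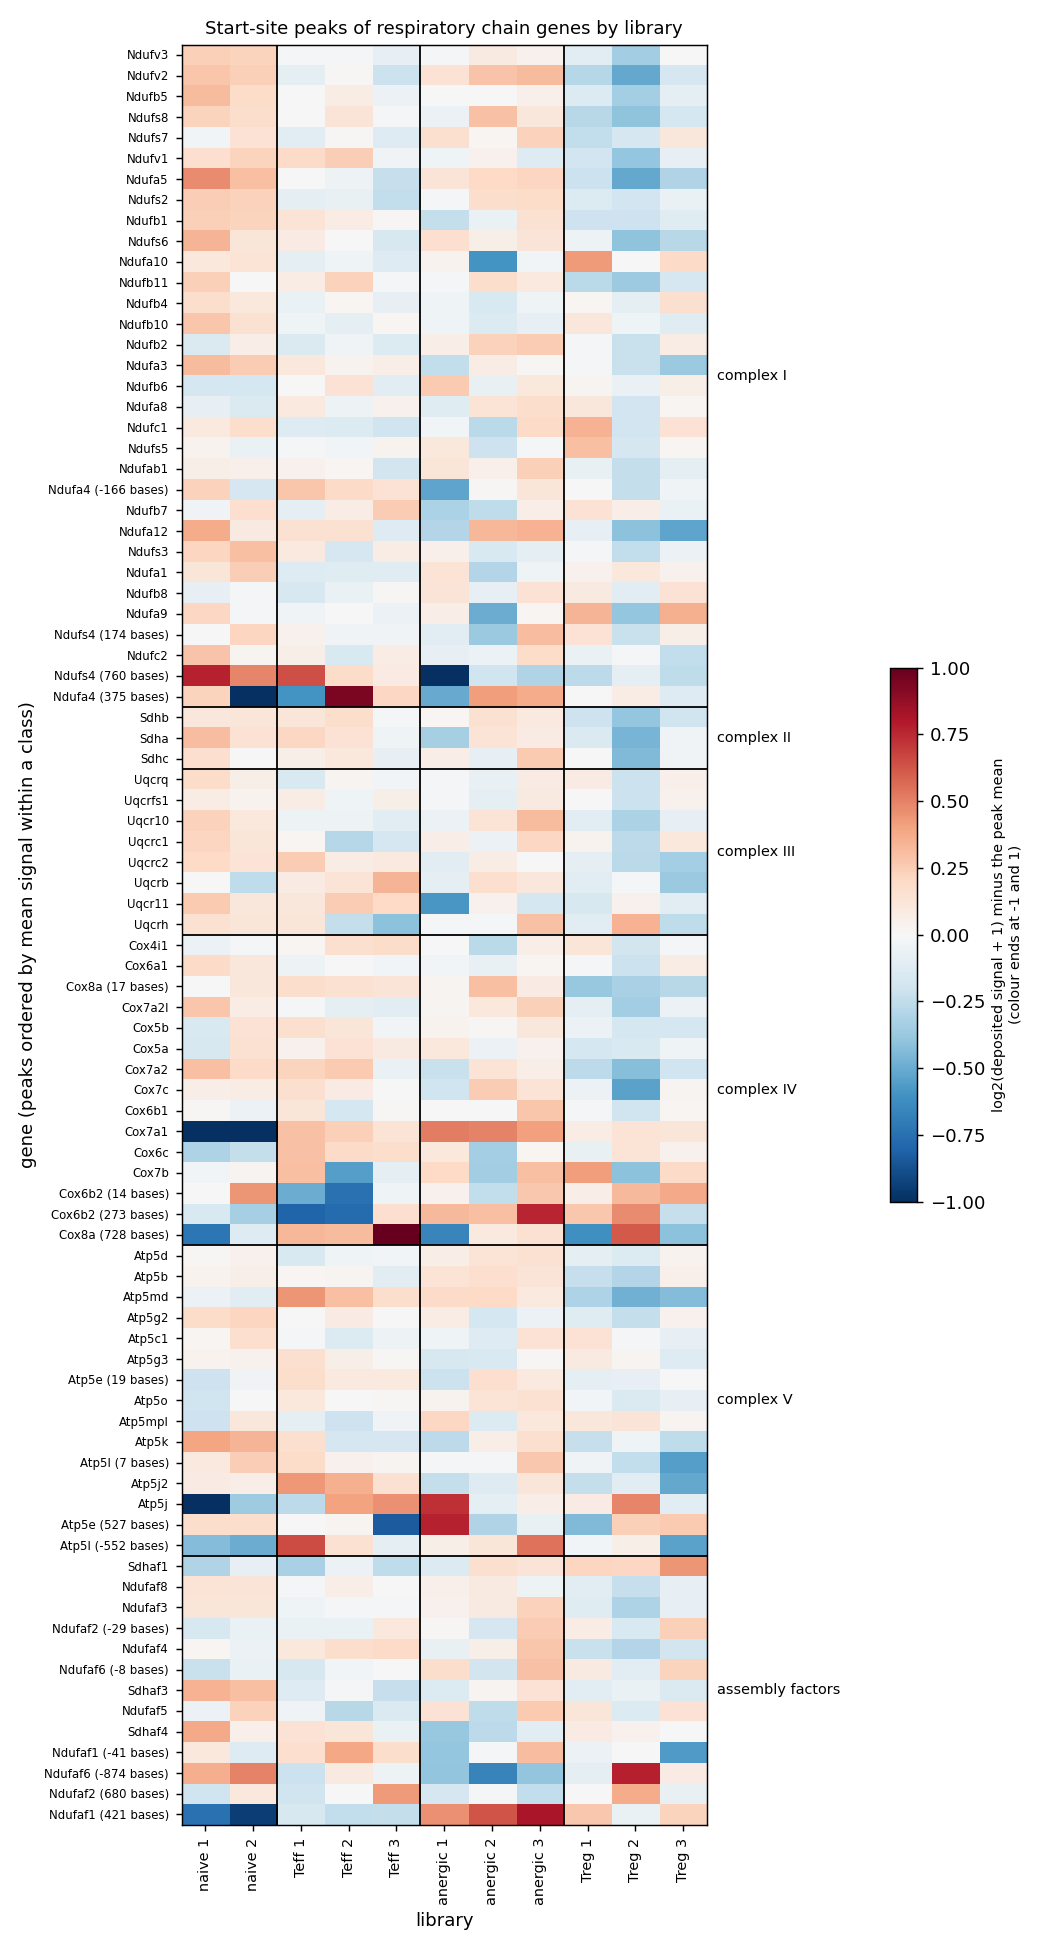
Each row is 1 of the 86 start-site peaks, ordered by complex and by mean signal, and each column 1 of the 11 libraries. Colour gives log2 of signal plus 1 minus the peak's own mean, so red is above and blue below it. Naive columns are mostly red and Treg columns mostly blue, with Treg 2 the bluest. Its median deviation was -0.18 over the 86 peaks and -0.15 over all start-site peaks. The naive medians were 0.10 and 0.11 over the 86 peaks, beside 0.06 and 0.10 over all start-site peaks. Cox7a1 is blue in naive and red elsewhere.

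Treg against naive cells gave the most start-site changes. Of the 86 peaks, 3 were higher and 28 lower in Treg (36.0%, against 39.3% of all start-site peaks, 11.1% higher and 28.3% lower). The median log2 difference was -0.16, beside -0.14 over all start-site peaks. Genes were put into complexes by symbol alone, so Ndufa4 and Ndufa4l2 are counted with complex I throughout. By complex, 14 of 32 start-site peaks of complex I were lower and 0 higher, 2 of 3 of complex II were lower, 2 of 8 of complex III were lower, 3 of 15 of complex IV were lower and 1 higher, 4 of 15 of complex V were lower and 1 higher, and 3 of 13 of assembly factors were lower and 1 higher. Over all 150 peaks, 16 were higher and 31 lower (31.3%, against 45.3% of all peaks, 22.3% higher and 23.0% lower).

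This lean depended on how libraries were scaled. With scaling by total reads in peaks instead of the deposited factors, 8 start-site peaks were higher and 10 lower and the median was 0.01. That change of scale moved the median of all 38493 peaks from -0.04 to 0.12 in this comparison. Under it all 150 peaks gave 25 higher and 12 lower. Counts of pairwise comparisons under this scaling, here and in other paragraphs, are given without the share of all peaks called. The deposited factor relative to total reads was 1.05 in both naive libraries and 0.882 to 0.980 in Treg, whose libraries were also the shallower. Without naive replicate 1 the start-site count was 1 higher and 10 lower. Of the 28 lower calls, 8 held in every alternative that was run: Ndufa5, Ndufv2, Ndufs8, Ndufb5, Ndufv3 and Ndufa3 of complex I, Sdhb of complex II and Cox7a2 of complex IV.

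Ndufa5, an accessory subunit in the arm of complex I that meets ubiquinone, had 4286 and 3803 units in naive, 3091, 2991 and 2635 in Teff, 3381, 3555 and 3581 in anergic and 2665, 2165 and 2511 in Treg. Every Treg library lay below every naive and anergic library, naive libraries were the highest, and Teff overlapped Treg at the bottom. The peak (chr6:24527240-24528140) covers the Ndufa5 start site, and a start of Asb15 lies within 1000 bases. The mean was 1.66-fold lower in Treg than in naive (log2 difference -0.73 ± 0.11 SE, limma adjusted p = 1.78e-05), where fold is on the scale of signal plus 1, as in all folds below. Against anergic cells the log2 difference of anergic over Treg was 0.52 ± 0.10 (adjusted p = 3.94e-04, limma). Ndufa5 was also lower in Teff than in naive (-0.48 ± 0.11, adjusted p = 0.00168, limma), a call that was lost without naive replicate 1.

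Ndufv2, an iron-sulfur subunit of the NADH-oxidising arm of complex I, had 6487 and 6306 units in naive, 5029, 5407 and 4620 in Teff, 5914, 6540 and 6664 in anergic and 4389, 3761 and 4754 in Treg. Naive and anergic libraries overlapped at the top, and Treg and Teff at the bottom (peak chr17:66101022-66102561). The log2 difference was -0.58 ± 0.11 in Treg against naive (adjusted p = 1.43e-04, limma), 0.57 ± 0.10 in anergic against Treg (adjusted p = 9.45e-05) and 0.35 ± 0.10 in anergic against Teff (adjusted p = 0.00715). Of the 5 start-site peaks that were higher in anergic than in Teff, Ndufv2 was the one whose call held in every alternative.

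Sdhb, the iron-sulfur subunit of complex II, had 3172 and 3181 units in naive, 3189, 3312 and 2907 in Teff, 2971, 3248 and 3134 in anergic and 2534, 2246 and 2555 in Treg. Cox8a, the widely expressed isoform of a small complex IV subunit, had 2303 and 2495 in naive, 2593, 2558 and 2512 in Teff, 2348, 2834 and 2437 in anergic and 1769, 1833 and 1902 in Treg. At both peaks the 3 Treg libraries lay below all 8 others. Sdhb differed by -0.36 ± 0.09 in Treg against Teff (adjusted p = 0.00526, limma) and by 0.35 ± 0.09 in anergic against Treg (adjusted p = 0.00603). Cox8a differed by -0.48 ± 0.10 in Treg against Teff (adjusted p = 7.09e-04) and by 0.46 ± 0.10 in anergic against Treg (adjusted p = 9.63e-04). The Cox8a call against naive (-0.39 ± 0.11, adjusted p = 0.00656, limma) was lost with scaling by total reads in peaks and without naive replicate 2.

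Ndufs8, an iron-sulfur subunit of complex I, ranged from 3365 to 3930 units in Treg against 5182 and 5012 in naive (-0.48 ± 0.11, adjusted p = 9.96e-04, limma). Ndufv3, a subunit of the NADH-oxidising arm, ranged from 4415 to 5632 in Treg against 6624 and 6569 in naive (-0.38 ± 0.10, adjusted p = 0.00364). Ndufb5, whose start lies beside that of Mrpl47, ranged from 3574 to 4248 against 5634 and 5130, Ndufa3 from 1203 to 1542 against 1936 and 1860, and Cox7a2 from 926 to 1083 against 1528 and 1414. In none of these 5 did a Treg library reach a naive one.

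Atp5md, a small subunit of the ATP synthase membrane part also called DAPIT, differed between Treg cells and both Teff and anergic cells. Its signal was 3784 and 3652 units in naive, 5356, 4868 and 4452 in Teff, 4495, 4527 and 4219 in anergic and 3183, 2829 and 2916 in Treg. Treg libraries lay below all others, naive libraries in the middle, and Teff and anergic libraries overlapped above them. Its peak is wide (chr19:47089702-47091415) and a start of Pdcd11 lies within 1000 bases. Treg cells were 1.64-fold lower than Teff (log2 difference -0.71 ± 0.09, adjusted p = 3.61e-06, limma). Anergic cells were higher than Treg (0.57 ± 0.09, adjusted p = 6.11e-05, limma) and Teff higher than naive (0.39 ± 0.10, adjusted p = 0.00397, limma). The lower call in Treg against naive (-0.32 ± 0.10, adjusted p = 0.0135) was lost with scaling by total reads and without either naive library.

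Cox7a1 went the other way from most start sites. It encodes the isoform of a small complex IV subunit known from heart and skeletal muscle. Its peak (chr7:30183906-30184387) had 197 and 221 units in naive, 594, 570 and 532 in Teff, 691, 682 and 645 in anergic and 511, 534 and 528 in Treg. All 9 libraries of Teff, anergic and Treg cells lay above both naive ones. The means were 3.21-fold higher in anergic than in naive (log2 difference 1.68 ± 0.15, adjusted p = 3.17e-09, limma), 2.69-fold in Teff (1.43 ± 0.15, adjusted p = 8.74e-08) and 2.50-fold in Treg (1.32 ± 0.15, adjusted p = 2.27e-07), and all 3 calls held in every alternative. This was the largest difference among groups at any of the 86 start-site peaks. A higher level in anergic than in Treg (0.36 ± 0.13, adjusted p = 0.0402, limma) was lost in 9 of the 17 alternatives.

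**Figure D3:**
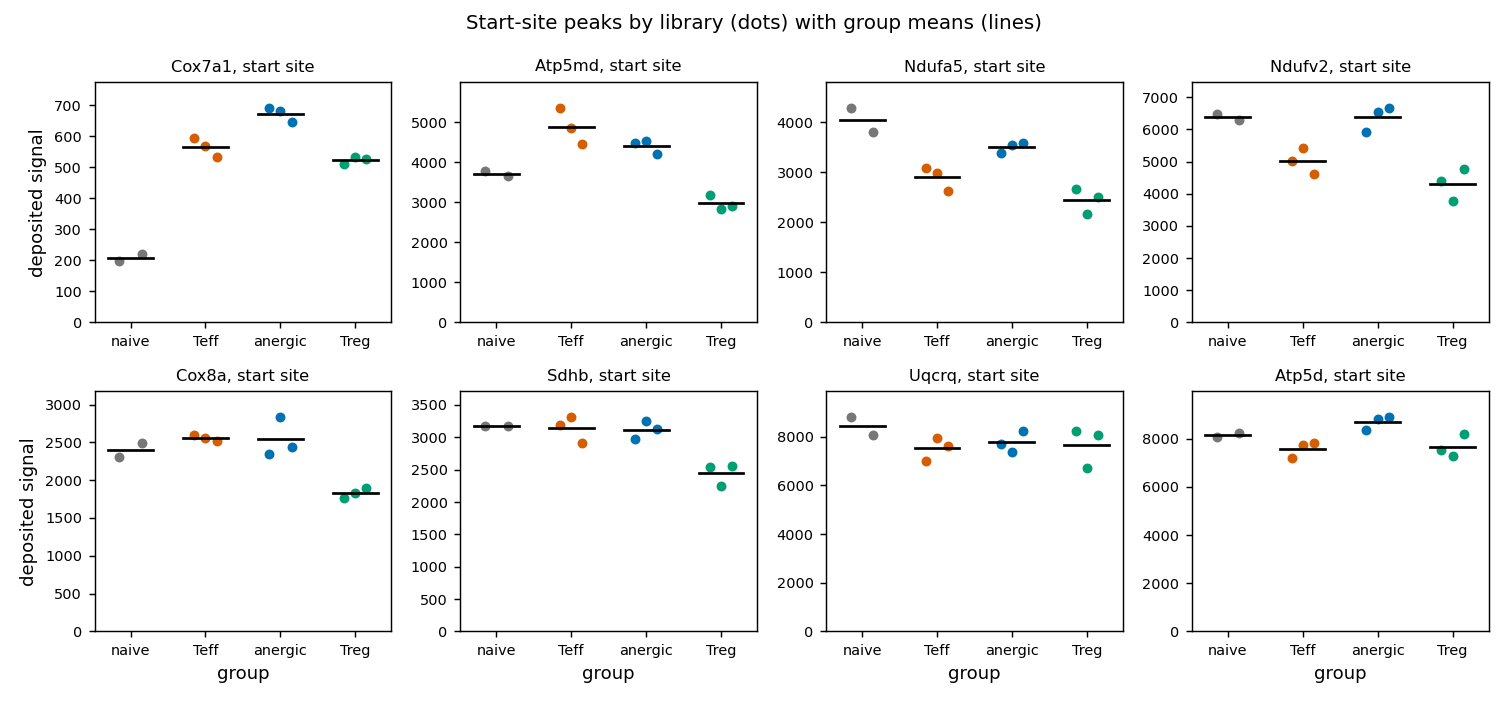
Deposited signal (y axis, from 0) of 8 start-site peaks in each library (dots) by group (x axis), with group means as lines. Cox7a1 stands at 197 and 221 in naive and at 511 or more elsewhere. Ndufa5, Ndufv2, Cox8a, Sdhb and Atp5md are lowest in Treg by mean. Uqcrq overlaps between groups, and at Atp5d the anergic libraries stand above the others.

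Other isoforms known from particular tissues or conditions were Ndufa4l2 and Cox6b2. Ndufa4l2, a hypoxia-linked paralogue of Ndufa4, had 3 distal peaks and none at its start site. Their values were 742 to 1031 units at 6.06 kb, 1240 to 1651 at 2.59 kb and 81.7 to 164 at 1.24 kb upstream, and none differed among groups (adjusted p = 0.164, 0.333 and 0.208, limma F test). Cox6b2, a testis isoform, had 2 start-site peaks. That at 14 bases had 271 and 368 units in naive, 191, 161 and 262 in Teff, 279, 228 and 326 in anergic and 283, 338 and 352 in Treg. Teff was the lowest group by mean and overlapped anergic, with calls below naive (-0.65 ± 0.22, adjusted p = 0.0241, limma) and below Treg (0.69 ± 0.20 for Treg over Teff, adjusted p = 0.0114). Both of these calls were lost without Teff replicate 2, the first also without naive replicate 2, without Teff replicate 1 and with scaling by total reads in peaks, and the second also without Treg replicate 3. The peak at 273 bases had 85.3 and 75.1 in naive, 54.0, 55.3 and 107 in Teff, 119, 117 and 162 in anergic and 115, 132 and 81.0 in Treg. It was higher in anergic than in Teff (0.93 ± 0.29, adjusted p = 0.0153, limma), which was lost without Teff replicate 1, Teff replicate 2 or anergic replicate 3.

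Anergic against Treg cells gave 15 start-site peaks higher and 2 lower in anergic (19.8%, against 27.5% of all start-site peaks, 20.6% higher and 6.90% lower). Over all 150 peaks, 24 were higher and 15 lower (26.0%, against 34.1% of all peaks, 19.4% higher and 14.8% lower). With scaling by total reads in peaks the start-site split became 6 and 6, and the split of all 150 became 10 and 21. The 6 higher start-site calls that held in every alternative were Ndufa5, Ndufv2, Ndufs8, Sdhb, Cox8a and Atp5md. The count over all 150 peaks fell from 39 to 25 without anergic replicate 3 and to 23 without Treg replicate 2, the shallowest library. The start-site count of 17 fell to 7 without Treg replicate 2 (6 higher and 1 lower) and to 10 without anergic replicate 2 or 3.

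Sdhaf1, which helps insert iron-sulfur clusters into complex II, was the start-site peak that was higher in Treg than in Teff in every alternative. It had 5948 and 6912 units in naive, 5849, 7045 and 6157 in Teff, 6677, 8188 and 8027 in anergic and 8488, 8468 and 9980 in Treg. The Treg libraries lay above all others, by 0.50 ± 0.10 over Teff on the log2 scale (adjusted p = 5.94e-04, limma). At start sites in Treg against Teff, 2 respiratory chain peaks were higher and 10 lower (14%, against 23.4% of all start-site peaks, 5.95% higher and 17.5% lower), and over all 150 peaks 15 were higher and 18 lower (22%, against 32.6% of all peaks, 14.4% higher and 18.2% lower). Without Teff replicate 2 the last count fell from 33 to 21 and the start-site count from 12 to 7.

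The remaining comparisons changed few start sites, and their start-site counts moved with single libraries. Anergic against Teff gave 5 higher and 2 lower (8.14%, against 16.0% of all start-site peaks, 7.92% higher and 8.11% lower), and 19 higher and 13 lower over all 150 peaks (21.3%, against 32.8% of all peaks, 15.9% higher and 16.8% lower). Its start-site split was 2 and 0 without Teff replicate 1, 2 and 1 without Teff replicate 2, and 1 and 3 without anergic replicate 3. Anergic against naive gave 4 higher and 8 lower (14%, against 31.9% of all start-site peaks, 15.1% higher and 16.8% lower), and 18 higher and 21 lower of all 150 (26.0%, against 50.5% of all peaks, 25.3% higher and 25.1% lower). With scaling by total reads in peaks its start-site split was 7 and 6, without naive replicate 1 it was 2 and 1, and without naive replicate 2 it was 3 and 2. Teff against naive gave 4 higher and 7 lower (12.8%, against 25.0% of all start-site peaks, 12.3% higher and 12.6% lower), and 16 higher and 14 lower of all 150 (20%, against 40.1% of all peaks, 22.7% higher and 17.4% lower). Without naive replicate 1 the last count fell from 30 to 19 and the start-site count from 11 to 3, and the start-site count was 6 without naive replicate 2 or Teff replicate 2 and 7 without Teff replicate 3. The comparisons share libraries, so their counts are not independent.

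Within a gene, second peaks near the start could move apart from the main one. Ndufs4, a complex I subunit, had 263 and 217 units in naive, 242, 175 and 163 in Teff, 73.0, 134 and 125 in anergic and 128, 145 and 129 in Treg at an intronic peak (chr13:114387193-114387476). Naive libraries were the highest by mean, and the log2 difference of anergic minus naive was -1.15 ± 0.27 (adjusted p = 9.06e-04, limma), a call that held in every alternative. The lower call in anergic against Teff was lost without Teff replicate 1 or anergic replicate 1, and that in Treg against naive without naive replicate 1 or with scaling by total reads in peaks. The main Ndufs4 peak at 174 bases ranged from 275 to 441 units over the 11 libraries (adjusted p = 0.871 among groups, limma F test).

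Distal peaks carried the large differences. A span of 1 or more on the log2 scale between group means was seen at 27 of 64 distal peaks (42.2%), against 56.5% of all distal peaks. Anergic against Teff gave 14 higher and 11 lower distal peaks (39.1%, against 41.1% of all distal peaks, 19.9% higher and 21.2% lower), anergic against Treg 9 and 13 (34.4%, against 37.4%, 18.8% and 18.6%), and anergic against naive 14 and 13 (42.2%, against 59.8%, 30.4% and 29.4%). Teff against naive gave 12 and 7 (29.7%, against 47.6%, 27.9% and 19.7%), Treg against naive 13 and 3 (25%, against 48.2%, 27.7% and 20.5%), and Treg against Teff 13 and 8 (32.8%, against 37.2%, 18.6% and 18.6%). Of the 64 distal peaks, 10 were higher than in naive in all 3 other subsets (15.6%, against 18.8% of all distal peaks). They lay near Atp5o, Ndufaf6, Cox7c, Ndufa13 and Ndufaf1. Of the 64, 1 was lower in all 3, near Cox7a2l (1.56%, against 10.4%).

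**Figure D4:**
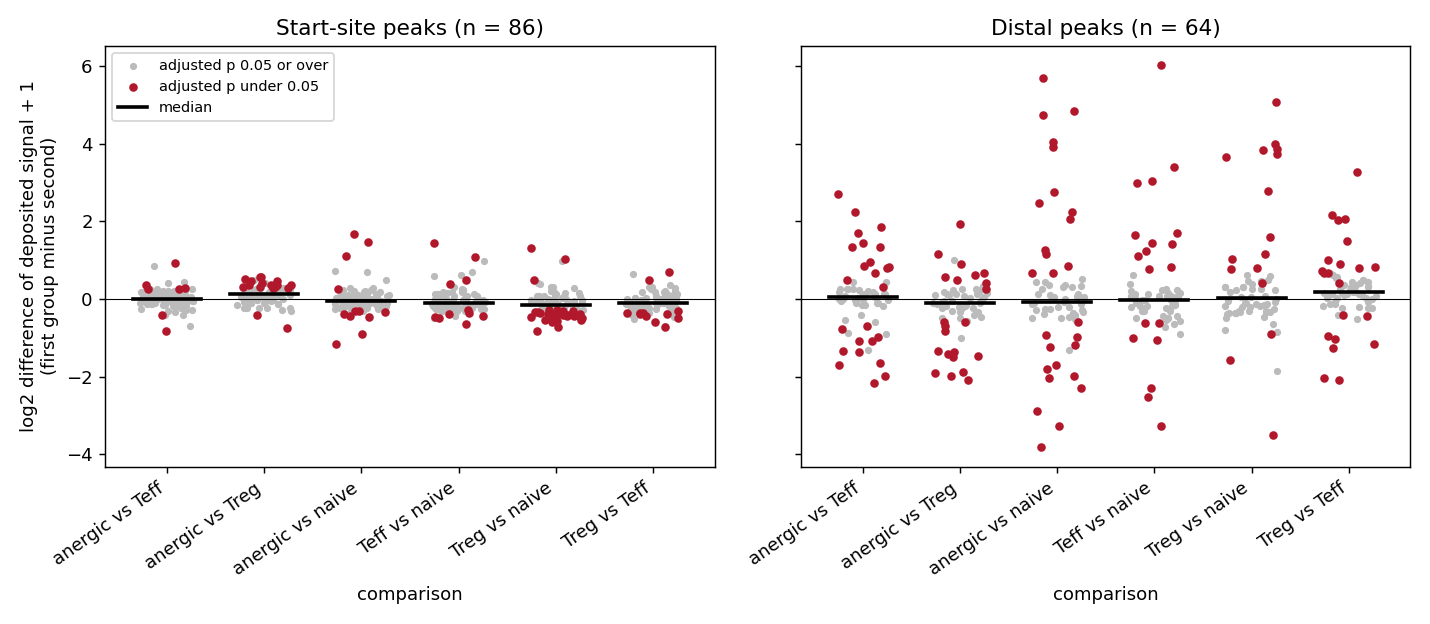
Log2 difference of signal plus 1 (y axis, first group minus second) of each start-site peak (left, 86) and distal peak (right, 64) in the 6 comparisons (x axis). Red points have an adjusted p under 0.05 (limma), grey points do not, and bars are medians. Start-site points stay within 1.68 of 0. Distal points reach 6.02, in Teff against naive at the Ndufaf1 peak whose naive libraries held 4 and 1 reads.

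The peak 31.4 kb upstream of Atp5o, whose gene encodes the stalk subunit of the ATP synthase known as OSCP, had the largest difference of anergic over naive cells. Its signal was 43.1 and 18.6 units in naive, 237, 232 and 230 in Teff, 1709, 1372 and 1470 in anergic and 836, 998 and 1129 in Treg. The 4 groups did not overlap and stood in the order naive, Teff, Treg, anergic. The mean was 51.5-fold higher in anergic than in naive (log2 difference 5.69 ± 0.24, adjusted p = 1.97e-14, limma) and 6.46-fold higher than in Teff (2.69 ± 0.21, adjusted p = 4.30e-09). Treg cells stood 4.20-fold above Teff (2.07 ± 0.21, adjusted p = 1.80e-07). The smaller difference between anergic and Treg (0.62 ± 0.21, adjusted p = 0.0261, limma) was lost in 5 alternatives, among them scaling by total reads in peaks and leaving out anergic replicate 1 or 3 or Treg replicate 1 or 2. The peak lies outside annotated genes, between Atp5o and Slc5a3. The Atp5o start-site peak ranged from 938 to 1199 units and did not differ among groups (adjusted p = 0.294, limma F test).

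Atp5o was the complex V gene with the most peaks, 6 in all, and they did not share 1 pattern. A neighbour of the first peak, 33.2 kb upstream, had 137 and 116 units in naive, 99.0, 105 and 130 in Teff, 287, 286 and 271 in anergic and 170, 215 and 147 in Treg. Anergic libraries were the highest, with 1.34 ± 0.20 over Teff on the log2 scale (adjusted p = 2.15e-05, limma). A peak 62.1 kb downstream, in an intron of Itsn1, had 27.6 and 16.3 in naive, 56.1, 85.1 and 70.0 in Teff, 103, 170 and 104 in anergic and 278, 321 and 356 in Treg. Here Treg libraries were the highest, 4.52-fold above Teff (2.17 ± 0.28, adjusted p = 3.14e-06) and above anergic by 1.37 on the log2 scale (-1.37 ± 0.28 for anergic minus Treg, adjusted p = 6.25e-04).

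Sdhaf1 had 5 distal peaks, all upstream, and their patterns differed. At 4.99 kb (chr7:30327157-30327564) the signal was 51.2 and 88.3 units in naive, 54.0, 102 and 123 in Teff, 330, 341 and 297 in anergic and 786, 883 and 920 in Treg. Naive and Teff libraries overlapped, anergic libraries lay above them and Treg libraries above those. Treg cells were 9.68-fold higher than Teff (log2 difference 3.28 ± 0.25, adjusted p = 3.26e-09, limma), and anergic cells 3.62-fold higher than Teff (1.86 ± 0.25, adjusted p = 4.53e-06). At 9.78 kb the signal was 914 and 893 in naive, 1005, 855 and 885 in Teff, 1784, 1673 and 1472 in anergic and 1835, 1756 and 1895 in Treg. Anergic and Treg libraries overlapped there, and both lay above the rest (0.84 ± 0.11 for anergic over Teff, adjusted p = 4.22e-06, and 1.0 ± 0.11 for Treg over Teff, adjusted p = 6.03e-07, limma). At 10.7 kb the order turned: anergic libraries were lowest with 74.6, 130 and 130, against 210 and 215 in naive, 208, 185 and 167 in Teff and 258, 336 and 308 in Treg (-1.46 ± 0.22 for anergic minus Treg, adjusted p = 2.43e-05). At 14.2 kb Treg libraries were the highest, with 161, 172 and 168 against 71.9 to 118 in Teff (0.83 ± 0.25, adjusted p = 0.0139, lost without Teff replicate 2). At 3.19 kb the signal ranged from 103 to 162 over the 11 libraries (adjusted p = 0.412, limma F test). All 5 peaks lie outside genes, between Sdhaf1 and Lrfn3.

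Ndufaf6, an assembly factor of complex I, had 3 upstream peaks that were higher in Teff, anergic and Treg cells than in naive. At 8.59 kb (chr4:11084406-11085177) the signal was 105 and 120 units in naive, 323, 242 and 345 in Teff, 834, 774 and 680 in anergic and 329, 362 and 336 in Treg. Anergic libraries were the highest, 2.53-fold above Teff (1.34 ± 0.16, adjusted p = 1.72e-06, limma) and 2.22-fold above Treg (1.15 ± 0.16, adjusted p = 1.67e-05). At 12.9 kb the order was the same, with 302 and 235 in naive, 534 to 605 in Teff, 1098 to 1119 in anergic and 543 to 717 in Treg. At 14.7 kb the values were low, with 3.25 and 17.0 in naive, 20.1, 17.3 and 58.3 in Teff, 124, 142 and 130 in anergic and 82.2, 181 and 104 in Treg. Anergic and Treg overlapped there, and both were higher than Teff (2.23 ± 0.49, adjusted p = 0.00102, and 2.04 ± 0.49, adjusted p = 0.00264, limma). The lowest naive library rested on 4 reads at that peak, and the call of Teff over naive was lost without naive replicate 1 or Teff replicate 3. Of the 2 start-site peaks of Ndufaf6, that at 8 bases ranged from 1010 to 1447 units (adjusted p = 0.364 among groups, limma F test). The other, 874 bases upstream, had 95.9 and 105 in naive, 63.7, 79.3 and 71.7 in Teff, 56.4, 46.4 and 56.4 in anergic and 69.8, 128 and 78.5 in Treg. Anergic libraries were the lowest there, with a difference from naive of -0.91 ± 0.32 (adjusted p = 0.0204, limma) that was lost without either naive library or anergic replicate 2.

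Ndufaf1, another complex I assembly factor, had a distal peak that was highest in Teff cells. It lies 21.1 kb downstream in an intron of Nusap1 (chr2:119641612-119641855). It had 3.25 and 0.774 units in naive, 192, 181 and 158 in Teff, 39.8, 48.0 and 44.3 in anergic and 30.4, 42.6 and 58.2 in Treg. Teff libraries lay above all others, 3.96-fold above anergic (-1.98 ± 0.41 for anergic minus Teff, adjusted p = 5.54e-04, limma) and 4.10-fold above Treg (-2.04 ± 0.41 for Treg minus Teff, adjusted p = 5.43e-04). Of the list for CD8, NK and innate-like T cells, the Zbtb16 and Klrb1c peaks were also high in Teff (733 to 1032 and 813 to 1075 units). The Cd8b1 and Eomes peaks of that list were lower in Teff than in naive and Treg (179 to 227 and 118 to 150 units in Teff). The part of such cells in this result was not tested. The naive libraries held 4 and 1 reads, so no fold against them is given, although all 3 other groups passed the test against naive. The value of 0.774 was the smallest of its library. A second Ndufaf1 peak, 421 bases from the start, had 19.5 and 17.0 in naive, 28.1 to 29.8 in Teff, 46.4 to 59.8 in anergic and 31.9 to 40.5 in Treg, with anergic over naive at 1.48 ± 0.43 (adjusted p = 0.00633, limma).

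Cox7c, a small complex IV subunit, has 2 peaks 322 and 323 kb downstream, in a long stretch with Rasa1 as the next gene. At 322 kb (chr13:85724697-85725038) the signal was 13.0 and 10.1 units in naive, 126, 83.4 and 96.7 in Teff, 449, 307 and 257 in anergic and 95.7, 91.5 and 70.9 in Treg. Anergic libraries were the highest, 3.24-fold above Teff (1.70 ± 0.27, adjusted p = 4.44e-05, limma) and 3.82-fold above Treg (1.93 ± 0.27, adjusted p = 1.47e-05), and naive the lowest. Of its bases, 72.8% are marked as repeats in the reference. The peak at 323 kb, with none, had 93.3 to 102 in anergic, 28.9 to 38.8 in Teff, 39.4 to 55.3 in Treg and 0.812 and 5.42 in naive, the last from 1 and 7 reads. Its call of anergic over Teff (1.45 ± 0.45, adjusted p = 0.0161) was lost without Teff replicate 2 or anergic replicate 3. The Cox7c start-site peak did not differ among groups (630 to 1088 units, adjusted p = 0.271, limma F test).

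Ndufa13, known as GRIM-19 and needed for complex I assembly, had 3 distal peaks in introns of Gatad2a. At 17.8 kb the signal was 810 and 938 units in naive, 1440 to 1564 in Teff, 2004 to 2217 in anergic and 1230 to 1851 in Treg. Anergic libraries were the highest, 2.39-fold above naive (1.26 ± 0.14, adjusted p = 1.57e-07, limma). At 35.1 kb Teff was the highest, with 223, 221 and 197 against 66.6 and 92.1 in naive, 70.5 to 119 in anergic and 83.3 to 111 in Treg (1.43 ± 0.28 for Teff over naive, adjusted p = 2.68e-04, limma).

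**Figure D5:**
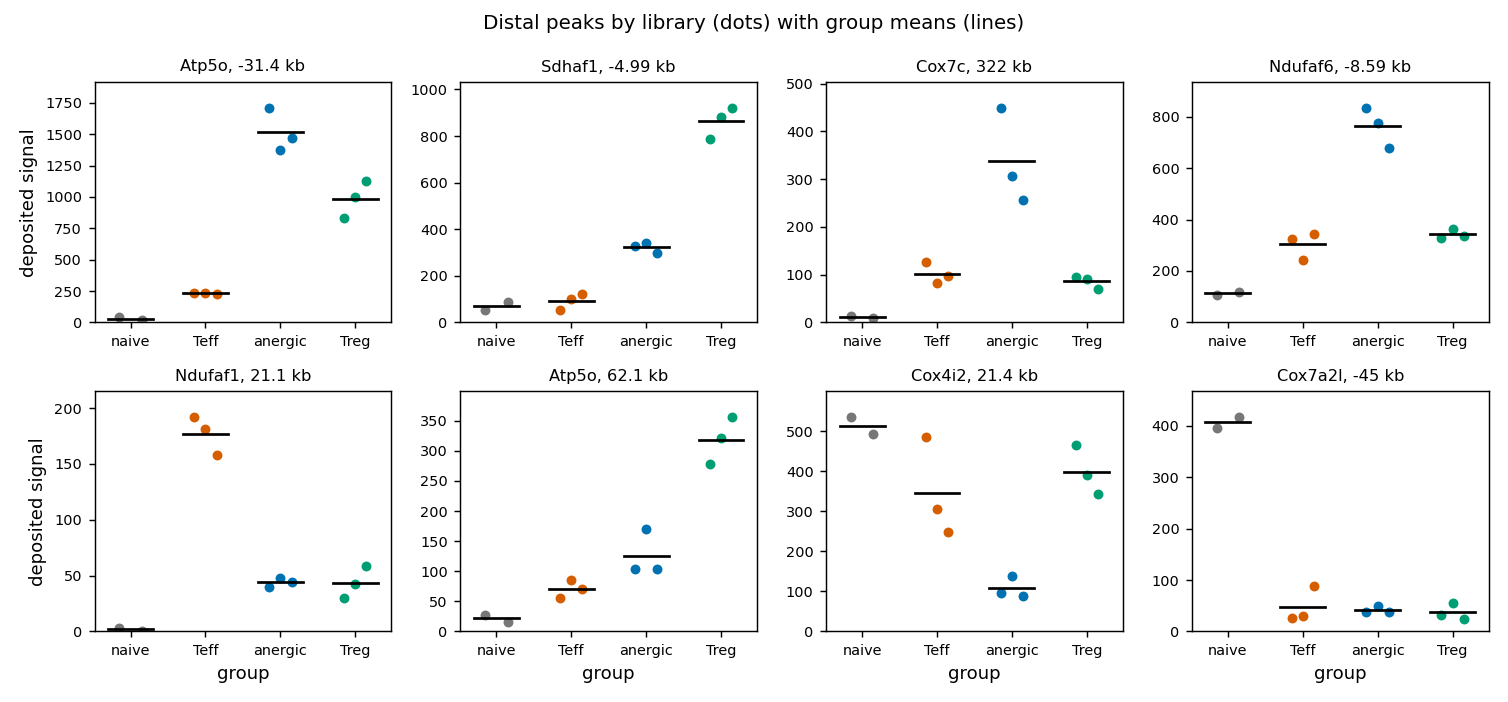
Deposited signal (y axis, from 0) of 8 distal peaks in each library (dots) by group (x axis), with group means as lines and the distance from the nearest start site above each panel, negative for upstream. Anergic libraries are highest at Atp5o -31.4 kb, Cox7c and Ndufaf6, Treg libraries at Sdhaf1 and at Atp5o 62.1 kb, Teff libraries at Ndufaf1 and naive libraries at Cox7a2l, while anergic libraries are lowest at Cox4i2.

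Of 21 distal peaks of complex IV, 2 were higher and 7 lower in anergic than in Treg (18.8% and 18.6% of all distal peaks), and the 7 belonged to Cox7a2l, Cox4i1 and Cox4i2. Against Teff, 3 were higher and 5 lower (19.9% and 21.2% of all distal peaks). In the same comparison assembly factors had 5 higher and 2 lower of 10, complex V had 5 higher and 0 lower of 9, and complex I had 1 higher and 4 lower of 21. These counts are small and share genes, with several peaks to a gene.

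The peak of Cox4i2, the hypoxia-linked lung isoform of the Cox4 subunit, lies 21.4 kb away in an intron of Bcl2l1, which encodes the survival factor BCL-XL (chr2:152775384-152775786). It had 535 and 492 units in naive, 485, 306 and 248 in Teff, 96.2, 139 and 87.3 in anergic and 465, 390 and 342 in Treg. Anergic libraries lay below all 8 others, by 1.65 on the log2 scale against Teff (-1.65 ± 0.22, adjusted p = 4.85e-06, limma), by 1.90 against Treg (-1.90 ± 0.22, adjusted p = 1.29e-06) and by 2.28 against naive (-2.28 ± 0.25, adjusted p = 8.02e-08). Of its bases, 75.2% are marked as repeats. No peak lay at the Cox4i2 start site. How reads with several matches were handled is not given in the sources used here.

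Cox7a2l, which encodes a factor that joins complexes III and IV into supercomplexes and is counted here with complex IV by its symbol, had the most peaks of any complex IV gene, 7. At 45.0 kb upstream (chr17:83559146-83559502) the signal was 396 and 417 units in naive, 26.3, 29.7 and 88.3 in Teff, 38.1, 50.1 and 37.6 in anergic and 31.5, 55.3 and 24.1 in Treg. Only the naive libraries were high, 9.57-fold above anergic, 9.66-fold above Teff and 11.4-fold above Treg (log2 differences -3.26, -3.27 and -3.51, each ± 0.45, adjusted p = 2.24e-06, 4.10e-06 and 1.44e-06, limma). At 13.0 kb upstream naive and Treg libraries were high, with 438 and 322 and with 341, 281 and 353, while Teff had 215, 158 and 190 and anergic 89.5, 130 and 128. Anergic was below Treg there by 1.49 on the log2 scale (-1.49 ± 0.20, adjusted p = 8.46e-06). At 60.5 kb downstream, in an intron of Eml4, Teff was the highest with 226, 163 and 125, against 26.2 to 51.4 in anergic and 29.1 to 49.0 in Treg (-2.15 ± 0.34 for anergic minus Teff, adjusted p = 3.59e-05, limma). The start-site peak of Cox7a2l had 1675 to 2592 units, with its lowest library in Treg.

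Cox4i1 and several complex I genes had distal peaks that were low in anergic cells, and those of Ndufa9 and Ndufb1 were low in Treg cells too. Between Cox4i1 and Irf8, the peak 28.9 kb downstream had 98.3 and 124 units in naive, 56.1, 45.4 and 78.3 in Teff, 49.7, 31.6 and 18.8 in anergic and 69.8, 68.1 and 109 in Treg (-1.80 ± 0.40 for anergic minus naive, adjusted p = 6.40e-04, limma). The next peak, at 33.8 kb, was highest in anergic, with 691, 874 and 726 against 507, 568 and 380 in Teff (0.67 ± 0.16, adjusted p = 0.00197, limma). Near Ndufa9, at 37.4 kb, anergic libraries had 43.1, 51.7 and 32.2 against 192, 130 and 102 in Teff and 85.6, 59.6 and 34.2 in Treg (-1.69 ± 0.34, adjusted p = 4.67e-04 for anergic minus Teff), with Treg overlapping anergic. In an intron of Ndufb1, anergic libraries had 101, 54.3 and 55.1 against 207, 175 and 147 in Teff and 63.1, 111 and 88.6 in Treg (-1.36 ± 0.28, adjusted p = 5.07e-04). At the Ndufa9 and Ndufb1 peaks Treg was also lower than Teff (log2 differences -1.27 and -1.03) and lower than naive (-1.57 and -0.90). Near Ndufa11b, in an intron of Igf2bp2, anergic libraries had 97.8, 79.1 and 92.0, below all others, against 249, 232 and 200 in Teff (-1.33 ± 0.21, adjusted p = 3.14e-05).

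At 41.5 kb from Ndufb9, in an intron of Mtss1, naive libraries had 142 and 111 units and the rest 2.64 to 53.1. The anergic libraries differed among themselves, with 53.1, 2.64 and 2.69 from 32, 5 and 4 reads. Anergic against naive passed the test (-3.82 ± 0.81, adjusted p = 4.36e-04, limma). Teff against naive (-2.51 ± 0.81, adjusted p = 0.0174) was lost without either naive library, without Teff replicate 2 and with DESeq2. The call of anergic against Treg had overlapping libraries and was lost in 8 alternatives.

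The wider set of mitochondrial genes was described by lists chosen for this report. For 39 other assembly factors of the chain, 31 genes had 55 peaks, of which 3 were higher and 18 lower in Treg than in naive (22.3% and 23.0% of all peaks), with a median log2 difference of -0.24. For 16 genes that maintain or express mitochondrial DNA, 14 had 24 peaks, with 1 higher and 12 lower in the same comparison and a median of -0.34. The median was -0.04 over all peaks and -0.14 over all start-site peaks, and 31 of the 55 and 13 of the 24 peaks lay at start sites. Scaling by total reads in peaks, applied to these lists after seeing the data, gave the 2 lists 4 higher and 15 lower (median -0.07) and 1 higher and 7 lower (median -0.17), beside a median of 0.12 over all peaks. With the deposited scaling, electron carriers and coenzyme Q synthesis gave 5 higher and 10 lower of 41 peaks, the citric acid cycle with pyruvate entry 13 and 12 of 53, regulators of mitochondrial genes 13 and 9 of 55, and uncoupling, ATP exchange and dynamics 6 and 7 of 31. These became 10 and 6, 16 and 6, 15 and 7, and 6 and 6 with scaling by total reads. In anergic against Teff the same lists gave, in order, 1 and 9, 2 and 2, 4 and 7, 7 and 7, 14 and 8, and 4 and 1, beside 15.9% higher and 16.8% lower of all peaks.

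In these lists too, the large differences were distal. Hif1a, the oxygen-sensing factor that turns cells from respiration to glycolysis, had a peak 5.41 kb away with 4.06 and 5.42 units in naive, 17.3, 22.3 and 35 in Teff, 257, 260 and 196 in anergic and 65.3, 89.4 and 141 in Treg. Anergic libraries were the highest (3.25 ± 0.37 over Teff on the log2 scale, adjusted p = 5.38e-07, limma). Pdss1, of coenzyme Q synthesis, had a peak 37.8 kb away in an intron of Apbb1ip with 13.8 and 17.0 in naive, 58.2, 62.8 and 107 in Teff, 302, 283 and 444 in anergic and 149, 177 and 187 in Treg (2.19 ± 0.27 for anergic over Teff, adjusted p = 1.55e-06). Near Cycs, which encodes cytochrome c, a peak 40.7 kb away was highest in Teff with 314, 270 and 192, against 46.4, 40.6 and 49.7 in anergic (-2.45 ± 0.47 for anergic minus Teff, adjusted p = 2.76e-04).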

How the data were processed

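ATAC-seq signal in peaks was analysed in 11 libraries of 4 groups taken from the labels. The submitters' design text names Trimmomatic for trimming and Bowtie2 for alignment. It gives Genrich for peaks called in each sample, with duplicates, mitochondrial and blacklisted reads left out, and DiffBind for the consensus of 38509 peaks. The authors deposited 1 signal value per peak and library. The scaling is not given in the sources used here, but every value was a whole number of reads (100% within 0.01) times 1 factor per library. That factor was taken as the smallest value of the library. Whether such a smallest value, counted here as 1 read, stood for no reads cannot be told.

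Each peak was given to the nearest RefSeq start site (GRCm38). After edgeR's filterByExpr removed 16 peaks, limma 3.58.1 (R 4.3.3) was fitted with trend to log2(signal + 1) over all libraries, with group as the term. P-values are two-sided and adjusted by the Benjamini-Hochberg method over 38493 peaks, with a threshold of 0.05. The whole reads were also tested with edgeR 4.0.16 and DESeq2 1.42.0. The fit was also run on simulated independent libraries with known scaling and with changes put into the anergic group only. That run does not bear on how the real libraries were scaled or replicated. Alternatives were a pseudocount of 5, no filter, scaling by total reads in peaks, a replicate block, leaving out each library, and peaks within 1000 bases only.

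Peaks were named where their change was among the largest of a comparison with no overlap between libraries, where they were the most open start site of a complex, or where they belonged to the genes with most peaks. Others, among them the start-site peaks whose calls held in every alternative, were chosen after their values were seen. The genes and lists were chosen with earlier results of these data known. Counts of reads limit precision at low peaks, and intervals cover the spread between libraries only. One marker gene and one peak sequence are not reported here.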

Additional observations from a re-analysis of the deposited data

How the results depend on the processing

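Of 220 calls at respiratory chain peaks over the 6 comparisons, 120 held in every alternative, 100 were lost in at least 1 and 0 reversed. Most losses came without naive replicate 1 (52), with scaling by total reads in peaks (45) and without Treg replicate 2 (36). With peaks within 1000 bases only, the calls numbered 7 in anergic against Teff, 17 in anergic against Treg, 12 in anergic against naive, 11 in Teff against naive, 31 in Treg against naive, 12 in Treg against Teff and 33 among the 4 groups, since fewer peaks were counted. Leaving out 1 library gave 24 to 34, 23 to 39, 30 to 41, 19 to 32, 24 to 49, 21 to 37 and 52 to 68 in the same order. With 1 naive library left, it was assumed to vary like the other groups. The replicate block gave 32, 39, 40, 32, 48, 33 and 67 calls against 32, 39, 39, 30, 47, 33 and 66 without it. Same-numbered libraries did not deviate together (r from -0.11 to 0.16 over 15 pairs, with 4 over 0.1), so the numbers were not treated as pairs. Depth limits the peaks with few reads, of which the lowest had 1 read in a naive library.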
